A study of Mus musculus with 4 samples.

Results

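The 10 genes described here are components of the circadian clock, the cell-autonomous oscillator that keeps daily time: Arntl, Clock, Per1, Per2, Per3, Cry1, Nr1d1, Nr1d2, Dbp and Tef. They were chosen by name, with earlier results of these data known. All 10 were found among the 23284 gene symbols of the deposited count files. RNA was sequenced from sorted regulatory T cells (Treg cells), which carry the factor FOXP3 and hold other immune cells in check, of C57BL/6 mice aged 12 to 13 months. There were 4 libraries with 1 library per group: Treg cells from eWAT (epididymal white adipose tissue, fat beside the epididymis) of PPARg-2KR mice, which carry a changed form of the nuclear receptor PPARG, eWAT Treg cells of wild-type (WT) mice, spleen Treg cells of PPARg-2KR mice and spleen Treg cells of WT mice. The libraries are named 2KR eWAT, WT eWAT, 2KR spleen and WT spleen. Spleen was the control tissue. How the cells were gated, and whether a library came from 1 animal or a pool, is not given in the sources used here.

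In the clock, ARNTL (also called BMAL1) and CLOCK pair up and switch on genes that carry E-box sequences. Among those are the Per and Cry genes, whose proteins shut the pair down, the Nr1d genes, whose REV-ERB proteins repress Arntl, and Dbp and Tef, transcription factors that pass the rhythm on through D-box sequences. Transcripts of Arntl and of Dbp and Nr1d1 peak at opposite times of day in most mouse tissues. The hour at which the tissues were taken is likewise not given, and a difference in harvest time cannot be told apart from a difference in tissue or genotype in any value below.

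Read totals ran from 8315569 (2KR eWAT) to 15993889 (2KR spleen). A level of 3 reads, roughly the upper 95% limit on the expected count when 0 are seen, corresponds to between 0.197 and 0.311 CPM. Values in CPM are reads scaled to a common library size by the trimmed mean of M-values (TMM). Foxp3 stood at 801 and 1160 CPM in 2KR and WT eWAT and at 1298 and 1408 CPM in 2KR and WT spleen, and of 6 Treg markers 1 was higher and 2 were lower in eWAT. Most markers of other cells were higher in the eWAT libraries, with exceptions among endothelial and B cell markers. The 6 macrophage and monocyte markers, all 6 past the test described below, summed to 1579 and 1241 CPM in 2KR and WT eWAT, against 69.1 and 81.5 CPM in 2KR and WT spleen. The 6 fibroblast and mesothelial markers, again all 6 past the test, summed to 215 and 513 CPM in eWAT, against 4.07 and 7.27 CPM in spleen. Of 5 dendritic cell markers 5 were higher in eWAT (113.6 and 58.2 CPM, against 8.85 and 14.9 CPM in spleen), as were 4 of 5 endothelial markers (263 and 152 CPM, against 192 and 173 CPM in spleen) and 3 of 5 B cell markers (138 and 81.0 CPM, against 76.8 and 88.5 CPM). Lower in eWAT were the endothelial marker Pecam1 (−1.04, edgeR adjusted p = 0.00318) and the B cell marker Cd79b (−0.54, edgeR adjusted p = 0.0421). The summed endothelial level of WT eWAT was below that of both spleen libraries because of Pecam1. Pecam1 alone made up 191 and 172 CPM of the sums in 2KR and WT spleen. The other 4 endothelial markers stood at 7.94 to 103 CPM in eWAT and at 0 to 0.969 CPM in spleen. The 5 adipocyte markers summed to 19.7 and 12.6 CPM in eWAT, against 1.31 and 2.75 CPM in spleen, and Adipoq had 0 reads in WT eWAT. The 5 mast cell markers summed to 73.6 CPM in 2KR eWAT and 11.8 CPM in WT eWAT, against 6.69 and 7.75 CPM in spleen, and Mcpt4 had 0 reads in WT eWAT and in both spleen libraries. Clock genes are active in most cell types, and the part of these cells in the values below was not tested. Fewer cells of a type and less RNA per cell cannot be told apart in such libraries.

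The tissue comparison asked how the clock genes differ between Treg cells of fat and of spleen. Per1, Per3 and Nr1d2 were higher in eWAT and Dbp was lower, and the other 6 genes did not pass the test. By fitted fold, Per1 was 4.15-fold higher, Per3 3.91-fold higher and Nr1d2 1.86-fold higher, and Dbp was 3.76-fold lower. The test set the 2 eWAT against the 2 spleen libraries (edgeR's quasi-likelihood test, Benjamini-Hochberg adjustment over 16488 genes, threshold 0.05), so its spread includes the genotype difference. Of all genes tested, 33.7% were called higher and 23.2% lower in eWAT, beside 3 of 10 and 1 of 10 of the clock genes. With 10 genes, such shares cannot be told apart from the background. Scaled by total counts, 5 of the 10 were called higher (Arntl and Clock were added), beside 34.9% of all genes. The median log2 fold change was 0.37 over the 10 genes and 0.11 over all genes tested. With genes of low count kept in, the all-gene median was 0.74. Genes with a read numbered 21775 and 21271 in 2KR and WT eWAT, against 18540 and 19463 in 2KR and WT spleen. Genes of low count thus tended to be higher in eWAT, and the cause was not tested. Groups of CPM values did not overlap for 6 of the 10 genes, with 5 higher and 1 lower in eWAT, beside 44.2% of all tested genes that lay wholly above and 37.6% that lay wholly below.

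**Figure D1:**
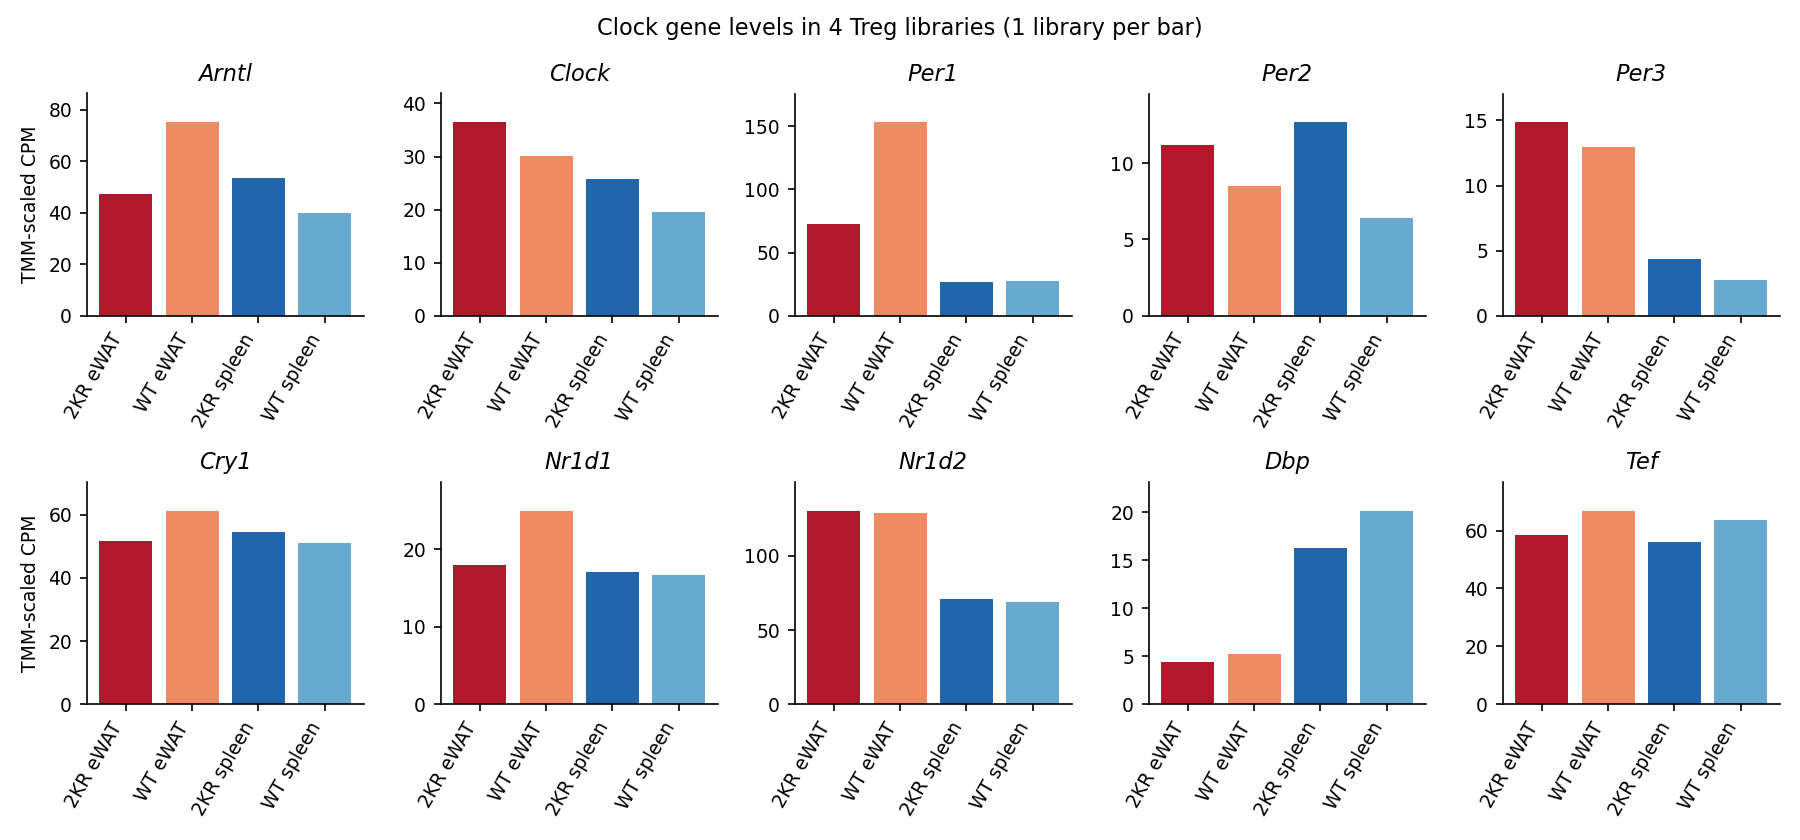
TMM-scaled CPM (vertical axes, each from 0) of the 10 clock genes in the 2KR eWAT, WT eWAT, 2KR spleen and WT spleen libraries, 1 bar per library. Per1, Per3 and Nr1d2 bars are taller in both eWAT libraries, Dbp bars are shorter there, and Arntl is tallest in WT eWAT at 75.1 CPM.

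Levels were compared between genes only per length, as the authors' FPKM (fragment counts scaled for transcript length and for mapped fragments). By the mean over the 4 libraries the order was Nr1d2 (23.8 FPKM), Arntl (19.3), Cry1 (18.8), Per1 (15.3), Tef (14.9), Dbp (9.40), Nr1d1 (7.34), Clock (3.27), Per2 (1.26) and Per3 (1.24). The lower 3 places were held by Clock, Per2 and Per3 in WT eWAT and in both spleen libraries, and in 2KR eWAT by Dbp, Per3 and Per2. Dbp was below Nr1d1 in both eWAT libraries and above it in both spleen libraries. Neighbours from Nr1d2 to Dbp changed places between libraries. Per1 ranked 1st in WT eWAT and 7th in each spleen library, and Dbp ranked 8th in 2KR eWAT and 2nd in WT spleen.

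Arntl and Clock form the activating arm. Arntl (mm9 chromosome 7, 120350979 to 120457640, plus strand) stood at 47.5 CPM in 2KR eWAT and 75.1 CPM in WT eWAT, against 53.6 CPM in 2KR spleen and 40.0 CPM in WT spleen. WT eWAT was highest and WT spleen lowest, and the tissues overlapped, with 2KR eWAT below 2KR spleen. The fitted tissue log2 fold change was 0.39 (SE 0.24, edgeR adjusted p = 0.167), and without 2KR eWAT it was 0.61 (adjusted p = 0.00778), whereas without WT eWAT it was −0.08. Such fits leave 1 library in a tissue, which is assumed to vary like the 2 libraries of the other tissue. Between single libraries, the log2 ratio of eWAT over spleen was −0.17 in 2KR mice (95% exact counting interval −0.34 to −0.01) and 0.91 in WT mice (0.75 to 1.07). Such intervals hold counting error alone: reads without molecular tags need not be separate molecules, and animals were not compared.

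For Arntl the genotype ratios had opposite signs in fat and spleen, with both intervals clear of 0. Set as 2KR over WT, the log2 ratio was −0.66 in eWAT (−0.83 to −0.49, 458 against 814 reads) and 0.42 in spleen (0.26 to 0.59, 818 against 495 reads). Scaling by total counts gave −0.40 in eWAT. With 1 library per group this difference could not be tested. Intervals clear of 0 were common over the 12307 genes with 5 CPM or more in a library. In eWAT 24.9% lay above and 37.8% below, and in spleen 18.4% above and 30.0% below. The share of genes with opposite signs in the tissues and both intervals clear of 0 was not counted. Most of the Arntl signal lay in the longer of the authors' 2 transcript models, at 17.7 and 26.0 FPKM in 2KR and WT eWAT and 15.8 and 12.7 FPKM in 2KR and WT spleen. The shorter model took 9.23% of the Arntl FPKM in 2KR eWAT and 0.00105% in WT eWAT, against 13.5% in 2KR spleen and 5.23% in WT spleen.

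A promoter window of Arntl is shown because the clock's REV-ERB and ROR proteins act on this gene through RORE sequences. The window holds 300 bases, 250 before and 50 after a RefSeq start, in GRCm38.p6 at chr7:113207261-113207560 on the plus strand, and capitals mark the RORE core TAGGTCA. Of 32851 such windows of mouse genes, 2.61% hold these letters on either strand.
Arntl: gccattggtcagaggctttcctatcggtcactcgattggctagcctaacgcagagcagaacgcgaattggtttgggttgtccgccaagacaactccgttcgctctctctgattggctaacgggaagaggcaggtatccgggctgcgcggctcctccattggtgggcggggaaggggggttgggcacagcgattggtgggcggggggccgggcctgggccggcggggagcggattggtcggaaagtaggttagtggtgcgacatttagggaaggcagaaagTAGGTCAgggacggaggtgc

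Clock (mm9 chromosome 5, 76641202 to 76733573, minus strand), the partner of ARNTL, stood at 36.4 CPM in 2KR eWAT and 30.1 CPM in WT eWAT, against 25.7 CPM in 2KR spleen and 19.6 CPM in WT spleen. Both eWAT values lay above both spleen values, and in each tissue the 2KR library was the higher one. The tissue log2 fold change of 0.55 (SE 0.23) missed the threshold (edgeR adjusted p = 0.0552). With genotype as a block it passed (0.56, adjusted p = 0.0292), as it did without WT eWAT (0.58, adjusted p = 0.0291), a fit whose spread comes from the 2 spleen libraries alone. Its genotype log2 ratio was 0.27 in eWAT (0.05 to 0.50) and 0.39 in spleen (0.15 to 0.63).

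Per1, Per2, Per3 and Cry1 encode the repressors. Per1 (mm9 chromosome 11, 68912458 to 68923459, plus strand), which is also a fast-responding gene that stress hormones and cAMP signalling switch on, stood at 72.4 CPM in 2KR eWAT and 153 CPM in WT eWAT, against 26.6 CPM in 2KR spleen and 27.9 CPM in WT spleen. The spleen values were close together and both eWAT values lay far above them. Between tissues the log2 fold change was 2.05 (SE 0.28, edgeR adjusted p = 7.89e-05), and it passed under all 10 alternatives run, with values from 1.32 to 2.42.

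Within fat, Per1 was lower in the 2KR library, with 698 reads in 2KR eWAT and 1657 reads in WT eWAT and a log2 ratio of −1.08 (−1.21 to −0.95). In spleen the log2 ratio was −0.07 (−0.28 to 0.15). Per1 was the single clock gene at a log2 ratio of −1 or less in eWAT, beside 2.36% of the 12307 genes with 5 CPM or more in a library, and 0 clock genes reached 1, beside 5.31%. Scaling by total counts, which moves the median of all genes in eWAT by 0.26, gave −0.82 for Per1, and FPKM gave −0.81.

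The authors' Per1 values split into 2 transcript models that start 1202 bases apart. The upstream model (4660 bases long) was at 18.4 FPKM in 2KR eWAT (authors' interval 16.9 to 19.8) and 13.6 FPKM in WT eWAT (12.3 to 14.8), against 0.00235 FPKM in 2KR spleen and 0.00184 FPKM in WT spleen. For the downstream model (4645 bases) the values were 0.0160 FPKM in 2KR eWAT (0 to 0.0924) and 18.6 FPKM in WT eWAT (17.2 to 20.1), against 5.30 FPKM in 2KR spleen (4.76 to 5.84) and 5.54 FPKM in WT spleen (4.93 to 6.14). Thus 99.9% of the Per1 FPKM went to the upstream model in 2KR eWAT and 42.1% in WT eWAT, against 0.0443% in 2KR spleen and 0.0332% in WT spleen. The models differ by 15 bases in length, and how many reads tell them apart is not stated, which makes the split an estimate with no replicate.

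**Figure D2:**
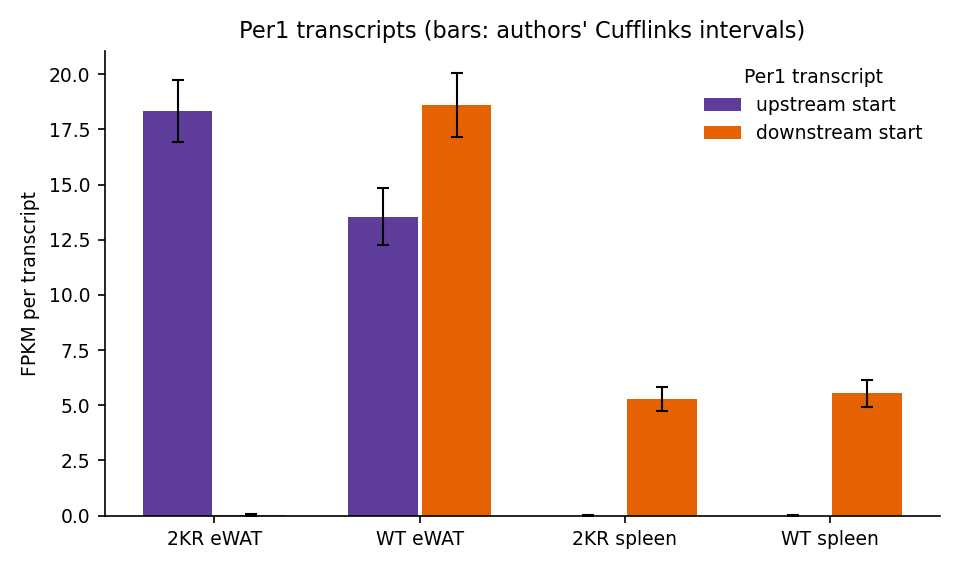
FPKM (vertical axis) of the upstream-start and downstream-start Per1 transcripts in the 2KR eWAT, WT eWAT, 2KR spleen and WT spleen libraries, with the authors' Cufflinks intervals as error bars. The upstream transcript reaches 18.4 FPKM in 2KR eWAT and 13.6 FPKM in WT eWAT and is near 0 in both spleen libraries.

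The windows at the 2 Per1 starts are shown because the transcripts differ there. RefSeq's windows lie 1203 bases apart in GRCm38.p6, at chr11:69098699-69098998 (upstream) and chr11:69099902-69100201 (downstream) on the plus strand. In the upstream window, capitals mark an E-box, CACGTG, which 7.15% of all windows hold on either strand. In the downstream window they mark TGACGT, the core of a cAMP response element, which 7.51% of all windows hold.
Per1 upstream: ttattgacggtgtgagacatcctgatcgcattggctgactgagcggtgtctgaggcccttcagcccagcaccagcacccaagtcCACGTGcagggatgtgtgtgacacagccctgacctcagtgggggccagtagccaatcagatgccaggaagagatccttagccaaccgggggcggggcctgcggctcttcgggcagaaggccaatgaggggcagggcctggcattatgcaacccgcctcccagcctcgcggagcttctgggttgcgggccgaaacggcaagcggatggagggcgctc
Per1 downstream: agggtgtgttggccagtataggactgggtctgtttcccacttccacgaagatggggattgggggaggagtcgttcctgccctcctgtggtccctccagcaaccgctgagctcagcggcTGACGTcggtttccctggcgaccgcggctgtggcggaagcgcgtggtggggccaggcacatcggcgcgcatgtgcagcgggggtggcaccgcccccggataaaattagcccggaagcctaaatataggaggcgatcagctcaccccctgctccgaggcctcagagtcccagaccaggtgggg
The matches are letters only and show no binding. Elsewhere the E-box was found in windows of Cry1 and Tef, and its variant CACGTT (in 4.68% of all windows) in those of Cry1 and Nr1d1, while none of the 5 motifs searched was found in windows of Clock, Nr1d2 or Dbp.

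Per2 (mm9 chromosome 1, 93312559 to 93355905), which works beside Per1, stood at 11.2 CPM in 2KR eWAT and 8.49 CPM in WT eWAT, against 12.7 CPM in 2KR spleen and 6.38 CPM in WT spleen. The tissues overlapped, and the 2KR library was the higher one in each. The tissue log2 fold change was 0.05 (SE 0.40, edgeR adjusted p = 0.928), and its sign turned under 6 alternatives. For genotype the log2 ratio was 0.39 in eWAT (−0.01 to 0.82) and 0.97 in spleen (0.60 to 1.38), where Per2 had 193 reads in 2KR and 79 in WT. In spleen 0 clock genes reached a log2 ratio of 1, beside 1.03% of genes, or −1, beside 5.71%, and on the FPKM scale Per2 was at 1.07.

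Per3 (mm9 chromosome 4, 150377764 to 150418731, minus strand), a Per paralog that most clocks can run without, stood at 14.8 CPM in 2KR eWAT and 12.9 CPM in WT eWAT, against 4.33 CPM in 2KR spleen and 2.75 CPM in WT spleen. The eWAT values were close together and clear of spleen. Its tissue log2 fold change was 1.97 (SE 0.41, edgeR adjusted p = 0.00159), with 143 and 140 reads in 2KR and WT eWAT and 66 and 34 reads in 2KR and WT spleen. Per3 passed under all 10 alternatives, from 1.09 to 2.28. The genotype log2 ratio was 0.20 in eWAT (−0.15 to 0.55) and 0.63 in spleen (0.04 to 1.30).

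Per3's promoter window is shown because D-box sequences are what DBP and TEF read, and Per3 and Dbp differed between tissues in opposite directions. Other D-box factors did not follow Dbp: Hlf (3.31) and Nfil3 (1.87) were higher in eWAT, and Tef (0.07) did not pass. A link between those differences was not tested. The window lies in GRCm38.p6 at chr4:151044616-151044915 on the minus strand and holds the D-box TTATGTAA 2 times (capitals), from its bases 46 and 93. Of all windows, 0.938% hold it at least once.
Per3: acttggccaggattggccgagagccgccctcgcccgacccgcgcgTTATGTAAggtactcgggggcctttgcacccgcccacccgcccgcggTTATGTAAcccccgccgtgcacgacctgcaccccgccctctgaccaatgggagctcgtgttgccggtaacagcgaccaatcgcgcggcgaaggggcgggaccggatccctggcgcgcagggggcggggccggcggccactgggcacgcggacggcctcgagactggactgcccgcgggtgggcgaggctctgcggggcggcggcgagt

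Cry1 (mm9 chromosome 10, 84594445 to 84647799, minus strand), the partner of the PER proteins, stood at 51.7 CPM in 2KR eWAT and 61.2 CPM in WT eWAT, against 54.5 CPM in 2KR spleen and 51.1 CPM in WT spleen. These values overlapped, with a tissue log2 fold change of 0.10 (SE 0.19, edgeR adjusted p = 0.673), a sign that turned in DESeq2 and without WT eWAT. The genotype log2 ratio was −0.24 in eWAT (−0.41 to −0.07) and 0.09 in spleen (−0.06 to 0.24), and total count scaling put the eWAT ratio at 0.01.

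Nr1d1 and Nr1d2 encode REV-ERB alpha and beta, the heme-binding repressors of Arntl. Nr1d1 (mm9 chromosome 11, 98629249 to 98636556, minus strand) stood at 18.0 CPM in 2KR eWAT and 24.9 CPM in WT eWAT, against 17.1 CPM in 2KR spleen and 16.6 CPM in WT spleen. Both eWAT values were above both spleen values, 2KR eWAT by little, and WT eWAT stood apart from the other 3 libraries. The tissue log2 fold change was 0.35 (SE 0.26, edgeR adjusted p = 0.268) and −0.01 without WT eWAT. For genotype, the log2 ratio was −0.47 in eWAT (−0.76 to −0.19) and 0.04 in spleen (−0.23 to 0.31). The opposite strand of the Nr1d1 end overlaps Thra in mouse, and since the counting's use of strand is not stated, reads of the pair may be mixed.

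Nr1d2 (mm9 chromosome 14, 19036570 to 19071620, minus strand) stood at 130.2 CPM in 2KR eWAT and 129 CPM in WT eWAT, against 70.7 CPM in 2KR spleen and 68.9 CPM in WT spleen. Libraries of a tissue were close to each other and the tissues were apart. The tissue log2 fold change was 0.89 (SE 0.18, edgeR adjusted p = 0.00146), but the call was lost without WT spleen (0.83, adjusted p = 0.0771) and without 2KR spleen (0.86, adjusted p = 0.0794). The genotype log2 ratio was 0.02 in eWAT (−0.09 to 0.13) and 0.04 in spleen (−0.09 to 0.17), and total count scaling gave 0.28 in eWAT. Per length, Nr1d2 stood above Nr1d1 by a ratio of 4.52 in 2KR eWAT and 3.05 in WT eWAT, and of 2.54 in each spleen library.

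Dbp and Tef are paralogous output factors of the PAR bZIP family, and they differed in pattern. Dbp (mm9 chromosome 7, 52960617 to 52965573, plus strand) stood at 4.36 CPM in 2KR eWAT and 5.26 CPM in WT eWAT, against 16.3 CPM in 2KR spleen and 20.1 CPM in WT spleen. The eWAT values were both far below spleen, at 42 and 57 reads against 248 and 249. Its tissue log2 fold change was −1.91 (SE 0.34, edgeR adjusted p = 0.000649), and Dbp passed as lower under all 10 alternatives, from −2.15 to −1.57. Within each genotype the log2 ratio of eWAT over spleen was −1.86 in 2KR (−2.41 to −1.42) and −1.90 in WT (−2.38 to −1.51). The genotype log2 ratio was −0.26 in eWAT (−0.88 to 0.33) and −0.30 in spleen (−0.57 to −0.05).

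Tef (mm9 chromosome 15, 81633103 to 81657293, plus strand) stood at 58.4 CPM in 2KR eWAT and 66.7 CPM in WT eWAT, against 55.9 CPM in 2KR spleen and 63.7 CPM in WT spleen. The tissues overlapped, and the tissue log2 fold change was 0.07 (SE 0.19, edgeR adjusted p = 0.767), with a sign that turned under 4 alternatives. The genotype log2 ratio was −0.19 in eWAT (−0.35 to −0.03) and −0.19 in spleen (−0.33 to −0.05), and the eWAT ratio was 0.07 under total count scaling. Per length, Tef over Dbp was 3.92 in 2KR eWAT and 3.76 in WT eWAT, against 0.955 in 2KR spleen and 0.911 in WT spleen. The ratio of Arntl over Dbp, genes that peak at opposite times in most mouse tissues, was 4.55 in 2KR eWAT and 6.22 in WT eWAT, against 1.35 in 2KR spleen and 0.852 in WT spleen. Arntl over Nr1d1 did not divide the tissues, at 2.47 in 2KR eWAT and 2.78 in WT eWAT, against 2.94 in 2KR spleen and 2.24 in WT spleen.

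Within each genotype, 2 of the 10 genes (Per1 and Per3) had a log2 ratio of eWAT over spleen of 1 or more and 1 (Dbp) of −1 or less. In 2KR mice this stood beside 23.1% and 14.4% of all genes, and in WT mice beside 20.7% and 12.0%. For Per1 the ratio was 1.44 in 2KR (1.27 to 1.62) and 2.45 in WT (2.29 to 2.63), and for Per3 it was 1.74 in 2KR (1.35 to 2.22) and 2.17 in WT (1.69 to 2.82). Nr1d2 stood at 0.88 in 2KR and 0.90 in WT.

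**Figure D3:**
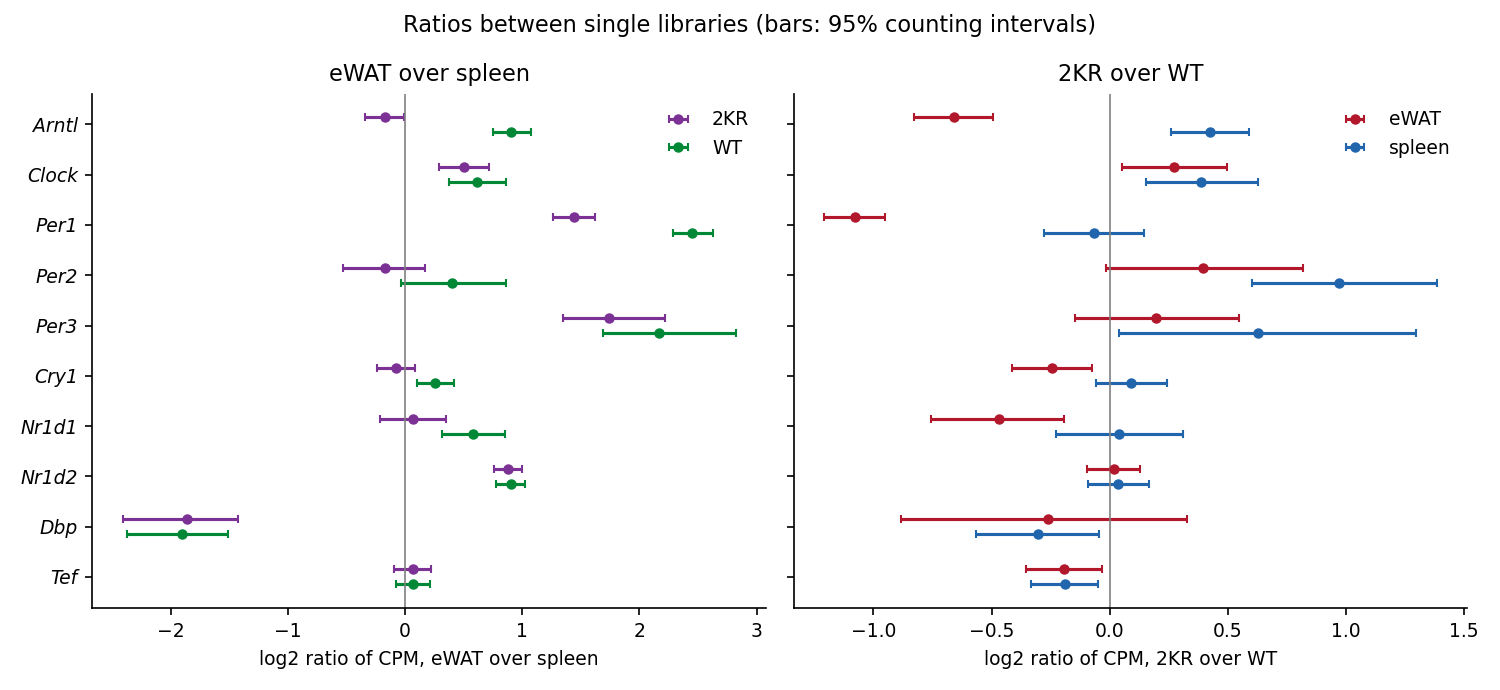
Log2 ratios of CPM (horizontal axes) between single libraries for the 10 clock genes, eWAT over spleen in 2KR and WT mice (left) and 2KR over WT in eWAT and spleen (right), with 95% exact counting intervals. Arntl ratios of 2KR over WT lie at −0.66 in eWAT and 0.42 in spleen, and Dbp lies near −1.9 for both genotypes at left.

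The genotype comparison asked how PPARg-2KR differs from WT. With tissue as a term and 1 residual degree of freedom, 0 of the 10 clock genes passed (edgeR's quasi-likelihood test), beside 0.0667% of all 16488 genes, and 0 passed in DESeq2 or in limma on FPKM. Per1 was the one with an unadjusted p under 0.05, at a log2 fold change of −0.59 (SE 0.21, unadjusted p = 0.0117, edgeR adjusted p = 0.893). Of all 16488 genes, 777 had an unadjusted p under 0.05 in the same fit. Within eWAT the counting interval lay above 0 for 1 gene (Clock), below 0 for 5 (Arntl, Per1, Cry1, Nr1d1 and Tef) and included 0 for 4. Over all 12307 genes 24.9% of intervals lay above 0 and 37.8% below. The median log2 ratio was −0.22 over the 10 genes and −0.08 over all 12307. Under total count scaling the all-gene median was 0.18. In spleen the interval lay above 0 for 4 genes (Arntl, Clock, Per2 and Per3), below 0 for 2 (Dbp and Tef) and included 0 for 4, beside 18.4% above and 30.0% below over all genes. The median there was 0.07 over the 10 genes and −0.07 over all.

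Other clock genes came from 3 lists. Of 11 other core clock genes 9 could be tested, and 6 were higher and 0 lower in eWAT, beside 33.7% and 23.2% of all genes; Arntl2 and Bhlhe41 were too low to test. Rora, an activator that competes with REV-ERB for RORE sequences and is known from tissue T cells, stood at 203 CPM in 2KR eWAT and 391 CPM in WT eWAT, against 50.8 CPM in 2KR spleen and 42.8 CPM in WT spleen. Its tissue log2 fold change was 2.67 (SE 0.28, edgeR adjusted p = 7.30e-06). Npas2, a paralog of Clock, had a log2 fold change of 3.12, Rorb, a ROR family gene, of 3.04, and Hlf, a PAR bZIP factor like Dbp and Tef, of 3.31, all from low spleen levels of 0.656 to 3.63 CPM. Nfil3, a repressor at D-boxes, was higher by 1.87 and Bhlhe40, a repressor at E-boxes, by 2.03. Bhlhe40 was abundant, at 605 and 589 CPM in 2KR and WT eWAT, against 131 and 162 CPM in 2KR and WT spleen. Cry2, the paralog of Cry1, did not pass (−0.35, edgeR adjusted p = 0.197).

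Of 11 genes for enzymes and cofactors that modify clock proteins, 2 were higher and 2 lower in eWAT and 7 did not pass. Of all genes, 33.7% were higher and 23.2% lower. Usp2, a rhythmic deubiquitinase, was higher by 1.89 (edgeR adjusted p = 0.000812), at 18.7 and 15.4 CPM in 2KR and WT eWAT, against 4.98 and 4.20 CPM in 2KR and WT spleen. Of 9 clock output genes 4 were higher and 1 lower, beside the same 33.7% and 23.2%. Coq10b, a coenzyme Q protein, was higher by 3.37, Lonrf3 by 3.26 (62 and 51 reads in 2KR and WT eWAT, against 10 and 6 in 2KR and WT spleen) and Klf9, a Krüppel-like factor, by 1.19. In 2KR eWAT over WT eWAT, Hlf had a log2 ratio of −1.36 (−1.64 to −1.10), Rora −0.95 (−1.03 to −0.87) and Npas2 −0.89 (−1.37 to −0.47), whereas Rorb was at 0.61 (0.26 to 0.97) and Nfil3 at −0.43 (−0.51 to −0.35). Bhlhe40 was at 0.04 (−0.01 to 0.09) and Usp2 at 0.27 (−0.04 to 0.59).

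**Figure D4:**
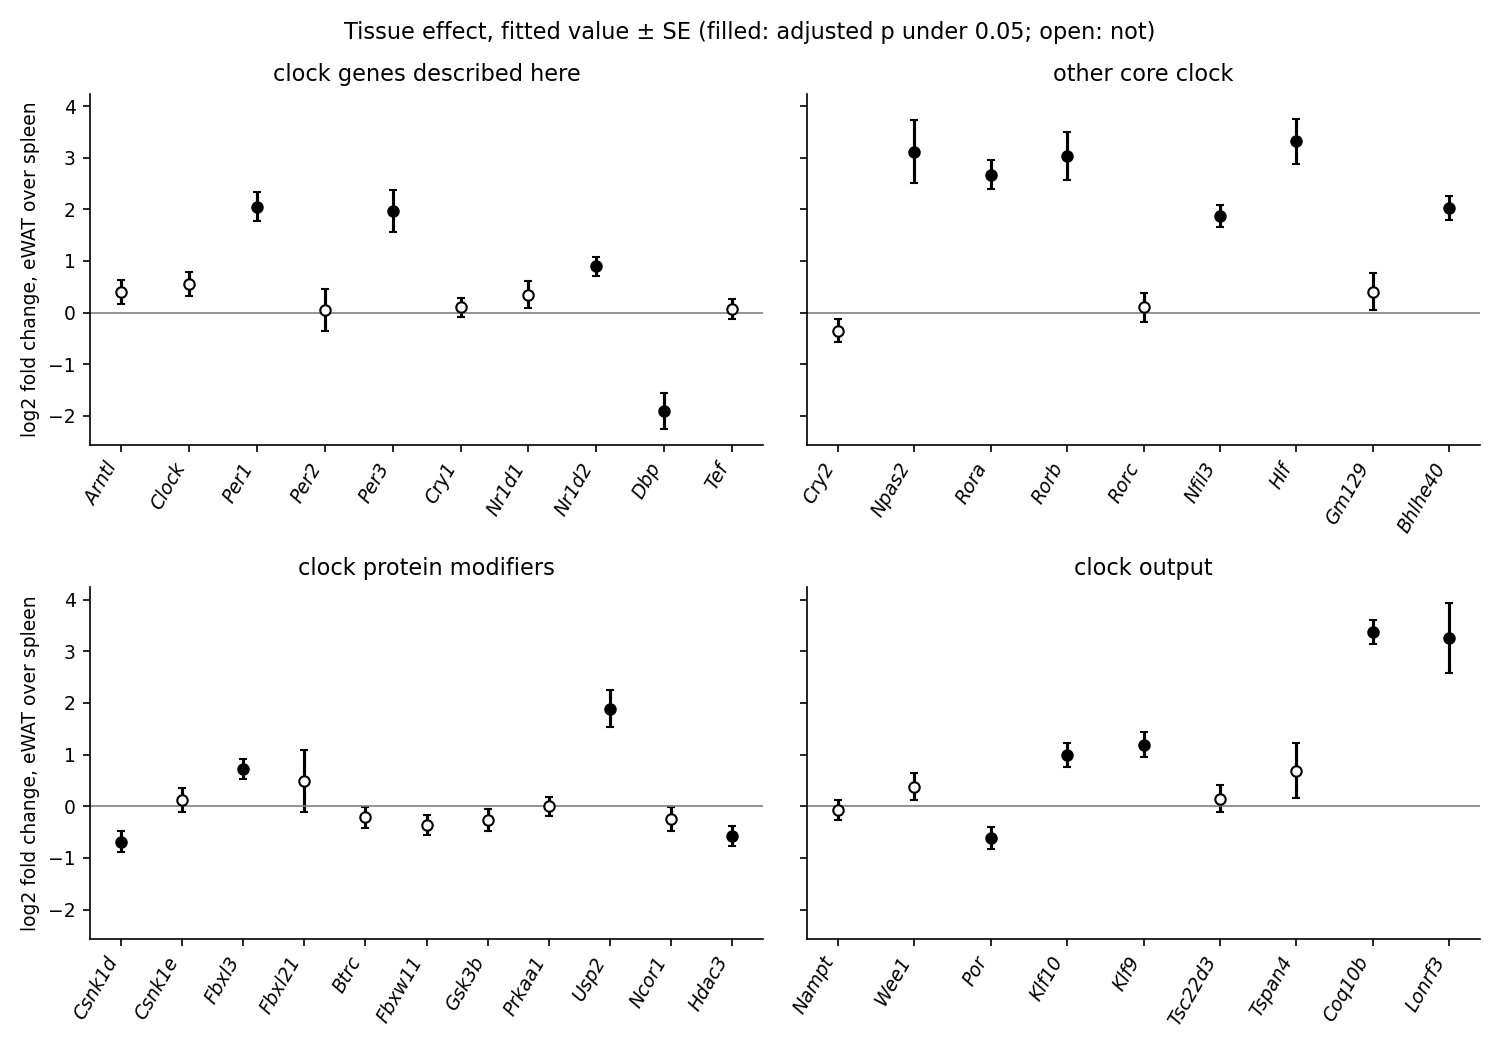
Fitted log2 fold change of eWAT over spleen with SE (vertical axes) for the 10 clock genes and the tested genes of 3 further clock lists. Filled points passed an adjusted p of 0.05, as 6 of 9 other core clock genes did, all higher in eWAT.

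Genes that share signals with Per1 are given beside it. All 8 immediate early genes listed were higher in eWAT, beside 33.7% of all genes, with a median log2 fold change of 3.38, against 0.11 over all genes. They summed to 6518 CPM in 2KR eWAT and 16631 CPM in WT eWAT, against 3027 CPM in 2KR spleen and 3005 CPM in WT spleen. Like Per1, these sums were close in the 2 spleen libraries and highest in WT eWAT. The AP-1 gene Junb had a genotype log2 ratio in eWAT of −1.45, the orphan receptor gene Nr4a1 of −1.62 and the cAMP-responsive gene Crem of −0.46. Of 6 genes known to respond to glucocorticoids 4 were higher in eWAT and 0 lower, beside 33.7% and 23.2% of all genes, and they summed to 2963 CPM in 2KR eWAT and 4974 CPM in WT eWAT, against 2346 CPM in 2KR spleen and 2019 CPM in WT spleen. Dusp1, a phosphatase gene that is also an immediate early gene, was the largest part of these sums in each library. It stood at 1739 CPM in 2KR eWAT and 3463 CPM in WT eWAT, against 1101 CPM in 2KR spleen and 1057 CPM in WT spleen. Of the 6 genes, Fkbp5 (0.15, edgeR adjusted p = 0.611) and Tsc22d3 (0.15, edgeR adjusted p = 0.649) did not pass. Their part in the Per1 values was not tested.

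Genes with the most similar pattern were taken as those with the smallest maximum difference in centred log2 CPM over the 4 libraries, among 7683 genes of mean 20 CPM or more. For Arntl these were Enpp4 (0.05), Irak3 (0.10) and Ccdc88c (0.11), with 39 genes within 0.2. For Nr1d1 they were Tmem8 (0.03), Ptpn5 (0.04) and Glipr2 (0.04), with 262 genes within 0.2.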

How the data were processed

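The authors deposited whole-number read counts per gene symbol without scaling, and FPKM per gene and per transcript. Per the deposited readme, poly-A selected libraries were read at 100 bases, converted with bcl2fastq 1.8.4, aligned to mm9 with Tophat 2.1.0 (4 mismatches, up to 10 multiple hits) and quantified as FPKM by the authors with Cufflinks 2.0.2. No source used here names the counting tool or its use of strand, and the labels name a second build, mm8. Starts of the deposited loci count from 0 and were raised by 1.

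Counts were tested with edgeR 4.0.16 in R 4.3.3 (quasi-likelihood test, TMM scaling, its expression filter, adjustment over all genes tested). Alternatives used DESeq2 1.42.0, limma 3.58.1 on log2(FPKM + 1) and log2(FPKM + 0.1) for genes at 0.5 FPKM or more in 1 library, total count scaling, no filter, genotype as a block and leaving out libraries. With 1 library per group, genes reaching 5 CPM in any library were given ratios (prior count 2), with exact binomial 95% intervals of counting error. Any p-value thus reflects no more than how these 4 libraries vary. Other steps used Python 3.11.15, pandas 2.3.3, scipy 1.17.1 and matplotlib 3.10.9. The edgeR tests were run on simulated data in which few genes changed, so those runs do not bear on the choice of scaling. Promoter windows are RefSeq's (GRCm38.p6), found for 9 of the 10 genes (not Per2), and 5 motifs were searched on both strands, of which none is contained in another: the E-box CACGTG, its variant CACGTT, the D-box TTATGTAA, the RORE core TAGGTCA and TGACGT.

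The 10 genes and the lists were chosen with earlier results of these data known. All 10 are named. From the other clock lists the text names genes past the threshold with a log2 fold change of 1 or more in either direction, plus Cry2, Npas2, Nfil3, Rora, Bhlhe40 and Usp2, and from the glucocorticoid and immediate early lists the 3 with the highest mean CPM. Arntl2, Bhlhe41 and the marker genes named were chosen after their values were seen.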

Additional observations from a re-analysis of the deposited data

Results flagged for a closer look

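Arntl was flagged because its genotype difference ran in opposite directions in the tissues. On the log2 scale 2KR over WT stood at −0.66 in eWAT and 0.42 in spleen, with counting intervals clear of 0, and the first minus the second was −1.08. The difference was not tested, because each group held 1 library. The share of all genes with such opposite signs was not counted. Intervals clear of 0 were common over the 12307 genes with ratios. In eWAT 24.9% lay above and 37.8% below, and in spleen 18.4% above and 30.0% below. Scaling by total counts gave −0.40 and FPKM gave −0.42 in eWAT, on the same side of 0. Harvest time, which is not given in the sources used here, cannot be told apart from genotype or tissue.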

How the results depend on the processing

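Per1, Per3 and Dbp kept their direction and their call in the tissue comparison under all 10 alternatives. With 1 library left out, between 2 and 4 clock genes were higher and 1 was lower, and over all genes 3403 to 5491 were higher and 1909 to 5278 lower. Total count scaling called 5 clock genes higher, adding Arntl (0.53) and Clock (0.73), beside 5753 of all genes (34.9%). With limma on log2(FPKM + 1), 3 clock genes were called higher, beside 3182 of 17983 genes tested. The signs of small tissue values turned. Per2 was at −0.10 in DESeq2, −0.039 without a filter, −0.22 and −0.35 on FPKM with pseudocounts 1 and 0.1, −0.41 without WT spleen and −0.25 without 2KR eWAT. Without WT eWAT, Arntl was at −0.080, Cry1 at −0.13, Nr1d1 at −0.0059 and Tef at −0.12, and with each library left out in turn the highest values were 0.61 for Arntl, 0.57 for Per2, 0.14 for Cry1, 0.49 for Nr1d1 and 0.12 for Tef. Cry1 was at −0.038 in DESeq2, and Tef at −0.066 in DESeq2, −0.011 without a filter and −0.079 without 2KR spleen. In the common genotype comparison no clock gene passed under any alternative. Arntl turned to 0.028 (total counts) and to 0.011 and 0.015 (FPKM, pseudocounts 1 and 0.1), Cry1 to 0.070, 0.061 and 0.065 in that order, and Nr1d2 to −0.0089 without a filter. Over all 16488 genes tested, 0 were higher and 11 lower, and total counts gave 10 higher and 11 lower. Of 22290 genes, no filter gave 9 higher and 42 lower and DESeq2 gave 2 lower. Of 17983 genes on FPKM, 93 were higher and 91 lower (pseudocount 1) or 43 and 48 (0.1). Within eWAT, total counts and FPKM each left 0 clock genes at a log2 ratio of −1 or less, since Per1 moved to −0.82 and −0.81. Total counts put 1280 of all genes at 1 or more and 135 at −1 or less, against 654 and 290 with TMM, and in 2KR mice 3120 and 825 for eWAT over spleen, against 2837 and 1770. In spleen, FPKM put 1 clock gene, Per2, at 1 or more. The cause of these changes was not tested. Leaving out a library leaves the common genotype model with no residual degrees of freedom, so it was not run. The labels give no replicate or animal numbers to pair libraries by. With genotype as a block in the tissue comparison, 4 clock genes were higher (Clock was added) and 1 lower. Of 16488 genes tested, 4487 were higher and 4007 lower in that fit. Depth limits Dbp in eWAT (42 and 57 reads) and Per3 in spleen (66 and 34 reads).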
